A study of Mus musculus with 8 samples.

Results

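The Cd209a conventional dendritic cells were 189 cells among 119053 cells of CD45+ fractions from 8 mouse brains, and 188 of the 189 came from the 4 saline-injected mice. They were picked cell by cell from unique molecular identifiers (UMIs, each standing for a captured RNA molecule). A member held at least 2 UMIs of Cd209a (ENSMUSG00000031494), at least 20 UMIs of H2-Aa, H2-Ab1 and Cd74 summed, at most 1 UMI of Mrc1, Cd163 and Stab1 summed, 0 UMIs of Cd79a and Cd3e, and at most 1 UMI of Ccr7 and Fscn1 summed. Only barcodes with at least 800 and under 45000 UMIs, at least 250 and under 6500 genes and under 5% mitochondrial UMIs counted as cells. The comparison cells were class II macrophages with at least 2 UMIs of Ms4a7, the same class II minimum and 0 UMIs of Cd209a, Cd79a and Cd3e, of which there were 733, 575 of them from saline mice.

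The mice were male C57Bl/6J animals 5 to 6 months of age by their labels (the study's methods give a different age range) and received saline or lipopolysaccharide (LPS, bacterial endotoxin) at 15000000 EU/kg by intraperitoneal injection 24 h before the brain was taken. Brains were dissociated with enzymes in the presence of DMSO vehicle or of inhibitors of transcription and translation (actinomycin D, triptolide and anisomycin), and CD45+ cells were held back on magnetic columns and captured by PIPseq. The design crossed saline or LPS with DMSO or inhibitors, with 2 mice and 2 libraries in each of the 4 combinations, and the replicate number is the batch given in the labels. No genotype other than C57Bl/6J was used, and all brains went unperfused, so cells in brain vessels were part of every library.

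Conventional dendritic cells carry antigen to T-cells and present it on major histocompatibility complex (MHC) class II molecules. They develop under the growth factor receptor Flt3 and express the transcription factor Zbtb46, which macrophages lack. Those that cross-present through Xcr1 and Clec9a form one branch, and those that depend on Irf4 and express lectins such as Cd209a, Mgl2 and Clec10a form another, which in the brain is found at the meninges and choroid plexus rather than in the parenchyma. Cd209a encodes a C-type lectin of the DC-SIGN family, Mgl2 and Clec10a encode lectins for galactose-type sugars, H2-Aa and H2-Ab1 encode the chains of a class II molecule, and Cd74 encodes the invariant chain that escorts it.

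The proximal promoter of Cd209a is printed here because this gene sets the membership, with 250 bases before and 50 bases after the gene start, in RefSeq on GRCm38.p6 (the counts were made on GRCm39, so these coordinates belong to the older build). It lies at chr8:3748935-3749234 on the minus strand and reads 5′ to 3′ along the gene.
Cd209a promoter: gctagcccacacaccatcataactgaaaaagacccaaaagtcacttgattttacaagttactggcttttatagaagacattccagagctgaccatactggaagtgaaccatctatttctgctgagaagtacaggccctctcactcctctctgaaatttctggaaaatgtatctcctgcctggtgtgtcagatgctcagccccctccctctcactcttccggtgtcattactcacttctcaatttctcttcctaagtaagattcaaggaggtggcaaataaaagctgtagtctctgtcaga
The class II Y box, the letters CTGATTGG, does not occur in this window on either strand.

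Each library held between 90352359 and 141182123 UMIs, of which 15.5 to 33.7% sat in barcodes with 1 to 99 UMIs, taken here as free RNA. The libraries held 12039 to 17364 cells in the limits, and any 2 libraries shared 0 to 25 cell barcodes, at most 0.187% of a library's cells. The members had a median of 2299, 1946, 3137 and 2095 UMIs in the 4 saline libraries (in the order DMSO 1, DMSO 2, inhibitors 1, inhibitors 2, which is kept throughout), against 3971.5, 2815.5, 3517 and 2660 UMIs in the macrophages. Members were thus the shallower cells in every saline library. Summed over the cells of a library, levels are given as CPM, the UMIs of a gene per 1000000 UMIs of the same cells, a scale on which the 3′-tagged RNA of a gene is not divided by its length.

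The genes that chose the cells are described without a test. Cd209a stood at 2103, 2914, 1829 and 2029 CPM in the members and at 0 CPM in the macrophages by construction. The median member held 4, 5, 6.5 and 5 UMIs of Cd209a in the 4 libraries, with a maximum of 28 UMIs. Cd74 reached 42079 ± 5441 CPM (SD, n = 4 libraries) in the members and 33246 ± 5010 CPM in the macrophages, and H2-Ab1 reached 13802 ± 1298 and 9677 ± 1042 CPM. H2-Aa stood lower in the members, at 6167 ± 1985 CPM against 9635 ± 1559 CPM. Mrc1, the mannose receptor of border macrophages, was limited in the members alone and stood at 104 ± 47.1 CPM in them and at 1480 ± 235 CPM in the macrophages.

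The members held only part of the brain's Cd209a RNA. In saline libraries 259 of 1147, 210 of 640, 480 of 1030 and 293 of 977 Cd209a UMIs in cells belonged to them. Cells with at least 2 UMIs of Cd209a numbered 169, 110, 117 and 166, the class II minimum kept 86, 75, 91 and 106 of these, and the limit on Mrc1, Cd163 and Stab1 kept 49, 43, 59 and 77. The cells lost at the last of these steps held RNA of border macrophages beside Cd209a. The 43 saline cells with exactly 1 UMI of Cd209a that met all other limits had 1111 CPM of Mgl2, 157 CPM of Flt3 and 1371 CPM of C1qa, a complement gene of macrophages and microglia. The 40 members with exactly 2 UMIs had 602, 105 and 628 CPM of the same genes, and the 148 members with 3 or more had 741, 162 and 560 CPM. Clec10a stood at 130 CPM in the cells with 1 UMI, at 366 CPM in those with 2 and at 509 CPM in those with 3 or more. Ccr2 stood at 778, 872 and 536 CPM and was detected in 65.1, 52.5 and 68.2% of these cells. In these pooled levels, cells just outside the Cd209a limit had more C1qa, Mgl2 and Flt3 RNA and less Clec10a and Ccr2 RNA than those just inside. For Ccr2 the share of cells with a UMI went the other way, and so did its level against members with 3 or more UMIs. The values come from 43 and 40 cells and are given without a test, so small differences may be counting error. At the class II limit only 3 members held 20 to 29 UMIs and 2 cells held 10 to 19.

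The first comparison asked how the share of these cells differed between saline and LPS mice. In saline libraries the members were 44 of 13230, 33 of 13402, 56 of 16105 and 55 of 14678 cells, that is 0.333% (95% exact binomial interval 0.242 to 0.446%), 0.246% (0.170 to 0.346%), 0.348% (0.263 to 0.451%) and 0.375% (0.282 to 0.487%). In LPS libraries there were 0 of 17052, 0 of 12039, 0 of 15183 and 1 of 17364 cells. By the exact binomial interval a count of 0 allows shares of up to 0.0216%, 0.0306% and 0.0243% in these libraries. No saline library overlapped an LPS library. The mean share was 0.325 ± 0.0555% (SD, n = 4) with saline and 0.00144 ± 0.00288% (n = 4) with LPS, a difference of -0.324 percentage points (exact two-sided permutation test over libraries, p = 0.0286, the smallest p that 4 against 4 allows, and 0.0286 after Benjamini-Hochberg adjustment over 3 measures). With labels exchanged only within a batch, the exact permutation p was 0.0556, the smallest that this pairing allows. The binomial intervals cover counting error only. Fewer such cells cannot be told apart here from cells that stayed but held less Cd209a RNA, alone or together with less class II RNA. With the class II minimum dropped, a setting tried after the data had been seen, there were 48, 38, 58 and 64 cells with saline and 0, 0, 0 and 1 with LPS.

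**Figure D1:**
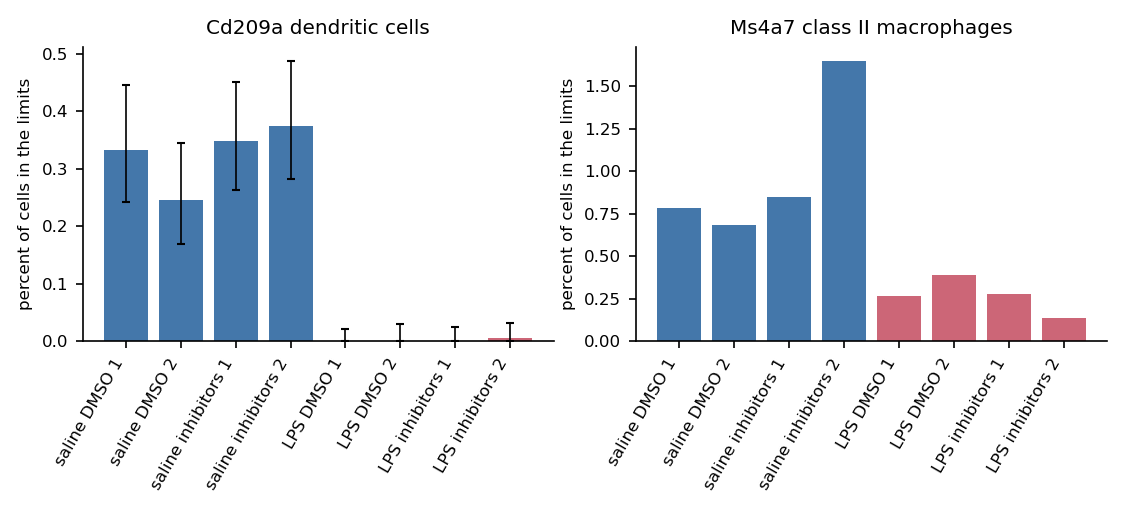
Share of cells in the limits that met the definition of Cd209a dendritic cells (left) and of Ms4a7 class II macrophages (right), in percent, for each of the 8 libraries; bars are the shares and the error bars at left are 95% exact binomial intervals. The 4 saline libraries lie between 0.246 and 0.375% at left, and the LPS libraries lie at 0 or 0.00576%.

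The macrophages were 0.786, 0.686, 0.851 and 1.65% of cells in saline libraries and 0.264, 0.390, 0.277 and 0.138% in LPS libraries. They too were lower with LPS in every library (0.993 ± 0.442% against 0.267 ± 0.103%, n = 4 each, exact permutation p = 0.0286), but 24 to 47 cells met their definition in each LPS library. That definition includes the class II minimum, so fewer macrophages cannot be told apart here from macrophages that held less class II RNA. The same limit applies to the ratio that follows. Set against 100 macrophages of the same library, the members numbered 42.3, 35.9, 40.9 and 22.7 with saline and 0, 0, 0 and 4.17 with LPS (exact permutation p = 0.0286). Members were thus fewer with LPS also when counted against the macrophages of the same library.

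RNA of Cd209a itself was scarce in all cells of the LPS brains, not only in those that met the definition. Over all cells in the limits there were 1147, 640, 1030 and 977 Cd209a UMIs with saline and 12, 4, 4 and 16 with LPS, although the LPS libraries were the deeper ones per cell. Mgl2, which the definition did not use, gave 1162, 740, 1391 and 1079 UMIs with saline and 35, 28, 28 and 26 with LPS. Free RNA in the barcodes with 1 to 99 UMIs held 10.9 to 17.8 CPM of Cd209a in saline libraries and 0.0701 to 2.19 CPM in LPS libraries. All 3 measures were lower in every LPS library than in any saline library.

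Definitions that replaced Cd209a were tried after the data had been seen. Cells with at least 2 UMIs of Mgl2 in its place numbered 37, 35, 48 and 52 with saline and 0, 1, 1 and 1 with LPS. Cells with at least 2 UMIs of Flt3 and Zbtb46 together in its place numbered 16, 11, 36 and 14 with saline and 5, 1, 1 and 0 with LPS. The share differed in the same direction under both (exact permutation p = 0.0286 for each), and 33 of the 77 saline cells found by Flt3 and Zbtb46 held Cd209a, against 0 of the 7 LPS cells. Without any class II minimum there were 208 cells with saline and 1 with LPS, and without the limit on Ccr7 and Fscn1, genes of mature migratory dendritic cells, there were 191 and 2.

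The single LPS member had 3682 UMIs. It held 2 UMIs of Cd209a and 36 of Cd74, but 0 of H2-Aa, H2-Ab1, Mgl2, Flt3, Zbtb46, Itgax and Ccr2. It also held 25 UMIs of C1qa and 5 of Fcgr1, genes of macrophages and microglia. Its RNA went against its label, and no change within the members could be measured between LPS and saline.

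The label was then checked in the saline members with markers that the definition did not use. To set cells of different depth on the same footing, each was thinned at random to 1500 UMIs, which left 148 members, 519 macrophages and 39180 microglia (cells with at least 5 UMIs of P2ry12 and Tmem119 summed, 0 of Cd209a and Ms4a7 and fewer than 20 class II UMIs). Mgl2 was detected in 44.6% of members (54.3% before thinning), 14.5% of macrophages and 0.214% of microglia. Flt3 was detected in 21.6% (33.0% before thinning), 0.578% and 1.09%, and Ccr2, the receptor that draws monocyte-lineage cells to tissue, in 49.3%, 16.8% and 0.852%. The shares in microglia serve as a reference at this depth, and their source was not tested. Free RNA of the saline libraries held 9.35 to 17.8 CPM of Mgl2 and 5.41 to 9.84 CPM of Flt3. Microglia nevertheless held Flt3 more often than Mgl2, so the shares are not a plain measure of free RNA. Zbtb46 was detected in only 6.08% of members (exact binomial interval 2.82 to 11.2%) against 0.771% and 0.926%. Markers of the cross-presenting branch were rare, with Xcr1 in 0 of 148 thinned members, for which the exact interval reaches 2.46%. Clec9a was found in 2 of them, or 1.35% (exact interval 0.164 to 4.80%), against 0.771% of macrophages and 0.0766% of microglia.

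RNA of microglia was present in the members. P2ry12, the purinergic receptor of microglia, was detected in 35.8% of thinned members and 43.4% of macrophages, against 99.1% of microglia. The 14 microglial genes summed to 2729 to 4841 CPM in the members, 6819 to 10090 CPM in the macrophages and 44186 to 46135 CPM in the microglia, and none of the 14 was at 0 in the members. Measured by P2ry12 and Tmem119 against the free RNA, the free share in the members came to 11.6, 7.65, 5.68 and 20.1%. Free RNA was then subtracted from both cell groups at these shares of the members. The gene comparison with macrophages that follows gave 331 higher and 514 lower of 3930 genes, in place of 337 and 478 of 4271. The macrophages got no share of their own, although they held 654 to 1027 CPM of P2ry12 and Tmem119, against 263 to 783 CPM in the members. The subtraction may therefore be too small for the macrophages. Of the 10 T-cell genes 5 to 9 were at 0 in the members of each library, which also lacked Cd3e by definition. The 10 B-cell genes summed to 210 to 680 CPM in the members and to 343 to 447 CPM in the macrophages, with 2 to 5 of them at 0 in the members. The 8 endothelial genes summed to 349, 347, 1616 and 360 CPM in the members and to 279, 898, 322 and 436 CPM in the macrophages, so that the members of inhibitors replicate 1 stood apart, and the 2 endothelial genes tested by edgeR between the cell groups, Cdh5 (log2 fold change 1.12, adjusted p = 0.0509) and Bsg (-0.26, adjusted p = 0.464), were not called. With P2ry12 and Tmem119 limited to at most 1 UMI summed, 24, 28, 41 and 39 saline members were left, and 0 in each LPS library. The share then differed by -0.228 percentage points (exact permutation p = 0.0286). The part of RNA from other cells in the DMSO and LPS gene comparisons was not tested.

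The second comparison set the members against the Ms4a7 macrophages within the 4 saline libraries (edgeR quasi-likelihood test on UMIs summed per library and cell group, mouse as a block, Benjamini-Hochberg adjustment over 4271 genes). Both groups were chosen by RNA of the same cells, so the p-values say how steadily these 2 chosen groups differed over libraries. A gene was called where its adjusted p was below 0.05 and its log2 fold change above 1 in size, which 337 genes (7.89% of those tested) met as higher in the dendritic cells and 478 (11.2%) as lower. Of these 321 and 463 differed in the same direction in all 4 libraries. How many of all tested genes had no overlap between the 2 groups is not given here. Non-overlap of a named gene therefore describes that gene only. The median log2 fold change of all genes was -0.01. When the macrophages had to meet the same limits on Mrc1, Cd163, Stab1, Ccr7 and Fscn1 as the members, which leaves 14 to 49 of them in a library, 147 genes were higher and 179 lower.

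Genes of conventional dendritic cells were higher in the members. Flt3 stood at 195, 69.4, 183 and 97.0 CPM in the dendritic cells and at 7.57 ± 4.67 CPM (SD, n = 4) in the macrophages (log2 fold change 4.08, SE 0.37, adjusted p = 1.3e-09). Zbtb46 stood at 89.3, 41.6, 91.5 and 41.6 CPM against 6.27 to 7.98 CPM (log2 fold change 3.19, SE 0.47). Neither gene overlapped between the groups. Dpp4, the surface peptidase CD26, Cd24a, the heat-stable antigen, and Itgax, the integrin CD11c, were higher by 4.92, 4.51 and 2.00 on the log2 scale. Irf8, the transcription factor on which the cross-presenting branch depends most, was lower, at 106, 27.8, 53.4 and 69.3 CPM against 213 to 257 CPM (log2 fold change -1.87, SE 0.27). Of the 12 tested among 19 core genes of conventional dendritic cells, 8 were higher and 1 was lower, with a median log2 fold change of 2.75. With the macrophages held to the members' limits, Flt3, Zbtb46, Cd24a and Irf4 had too few UMIs to be tested. In that setting Dpp4 was higher by 3.58, Itgax was not called (1.00) and Irf8 was lower (-2.23).

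Of the Irf4-dependent branch, Mgl2 stood at 650, 791, 838 and 506 CPM in the dendritic cells and at 216, 119, 165 and 139 CPM in the macrophages (log2 fold change 2.04, SE 0.20, adjusted p = 4.2e-09). Irf4 stood at 179, 167, 68.6 and 97.0 CPM against 5.99 to 13.3 CPM (log2 fold change 3.47, SE 0.40), and Cbfa2t3, a transcriptional corepressor, rose by 3.22. Neither gene overlapped between the groups. Clec10a was higher by 1.10 (SE 0.21), but its call fell under the limit on fold change without inhibitors replicate 1 (0.91) or inhibitors replicate 2 (0.98). With the macrophages held to the members' limits it was called at 5.93, where the members held 290 UMIs of it and those macrophages 2, so that this size is loosely set. Ccl17, a chemokine for T-cells, was higher by 2.66, with dendritic cells at 27.7 to 274 CPM and macrophages at 0 to 96.1 CPM, so its groups overlapped. Sirpa, the receptor often used to sort this branch, was not called (log2 fold change -0.69, SE 0.19, adjusted p = 0.0066). Of 12 tested genes of this list 6 were higher and 0 lower, with a median of 1.05.

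Markers of the other dendritic cells gave a different count. Of 8 tested genes of the cross-presenting list 2 were higher and 4 lower. Rab7b and Cd36, the scavenger receptor, were lower (log2 fold changes -4.80 and -4.49) and Wdfy4, needed for cross-presentation, was higher by 2.13. Of 4 tested genes of plasmacytoid dendritic cells 0 were higher and 1, Lair1, was lower (log2 fold change -2.22). Siglech, shared by plasmacytoid cells and microglia, was not called (log2 fold change -0.71, adjusted p = 0.042).

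**Figure D2:**
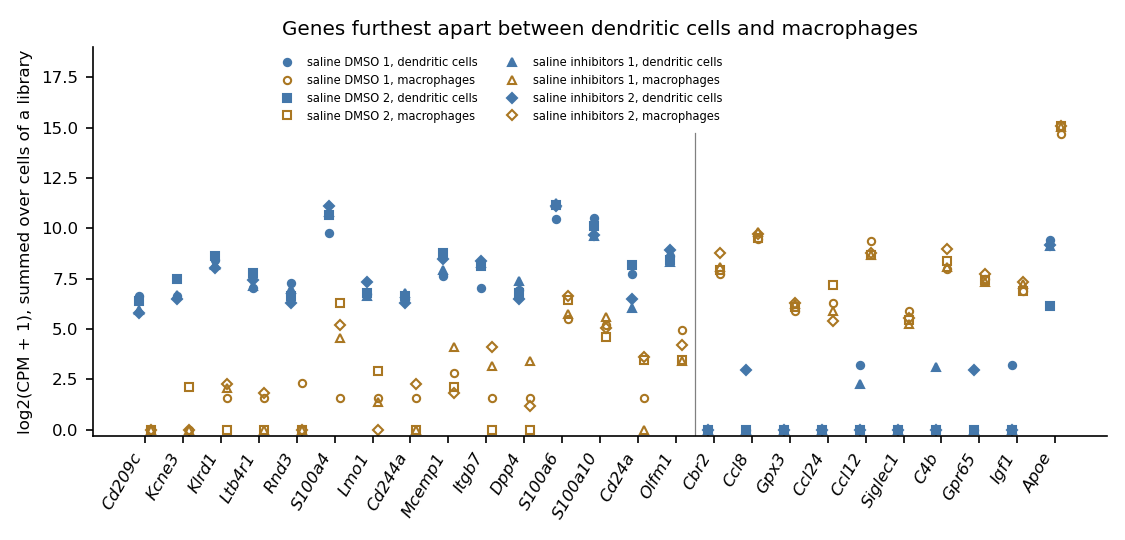
CPM on the log2(CPM + 1) scale of the 15 genes furthest above and the 10 furthest below the macrophages (left and right of the line), with a point per saline library; filled blue points are dendritic cells and open brown points macrophages, and the marker shape gives the library. The 2 cell groups do not overlap for any of the 25 genes. These were picked as called genes with the largest fold changes that moved alike in all 4 libraries, so their separation follows largely from the choice.

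Among the 15 genes with the largest positive fold changes of those moving alike in all 4 libraries, Klrd1, a subunit of the CD94 receptors known from natural killer cells, stood at 341, 389, 290 and 256 CPM in the dendritic cells and at 0 to 3.76 CPM in the macrophages, which is higher by 6.59 on the log2 scale (SE 0.35, adjusted p = 5.2e-14). It was detected in 33.8% of thinned members, 0.578% of macrophages and 1.50% of microglia. Of the natural killer cell list only Ccl5 passed the filter on low counts, and it was lower in the dendritic cells (log2 fold change -4.24, SE 0.50). The 8 listed genes of natural killer cells, which do not include Klrd1, summed to 11.4 to 56.8 CPM in the members and to 93.8 to 675 CPM in the macrophages, and 5 or 6 of them were at 0 in the members of each library.

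S100a4, S100a6 and S100a10, calcium-binding proteins abundant in monocyte-derived and motile cells, were higher by 5.75, 4.85 and 4.71 on the log2 scale. S100a4 stood at 861, 1610, 1814 and 2182 CPM against 2.00, 76.2, 22.4 and 35.1 CPM. Itgb7, an integrin beta chain of gut-homing leukocytes, was at 130 to 332 CPM against 0 to 16.3 CPM. Olfm1, a secreted glycoprotein, and Mcemp1, a membrane protein named from mast cells, were higher by 4.47 and 5.19. Lmo1, a transcriptional cofactor, and Cd244a, a receptor of the SLAM family, were higher by 5.74 and 5.41. None of these genes had a dendritic cell library below a macrophage library.

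Several of the highest genes had almost no counts in the macrophages. Cd209c, a neighbour of Cd209a in the same family, gave 42 UMIs in the members and 0 in the macrophages, at least 51.7-fold higher when 3 counts are allowed for the macrophages as a whole. Reads of such near-identical relatives may be split between them in counting, so its level is uncertain. Kcne3, a potassium channel subunit, gave 65 and 1 UMIs (ratio of CPM 240, counting interval 41.6 to 9630), Ltb4r1, the leukotriene B4 receptor, gave 94 and 3 (ratio 116, 38.4 to 571), and Rnd3, an atypical GTPase, gave 70 and 2 (ratio 129, 34.5 to 1089). The wide intervals come from the 0 to 3 UMIs on the macrophage side.

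Of the 10 genes furthest below the macrophages, Apoe and Cbr2 belong to the macrophage list. Apoe, the lipid carrier, stood at 690, 69.4, 549 and 582 CPM in the dendritic cells and at 25910, 34869, 32956 and 34284 CPM in the macrophages (log2 fold change -6.13, SE 0.31, adjusted p = 1.7e-14). Cbr2, a carbonyl reductase of border macrophages, gave 0 UMIs in the members and 699 in the macrophages, at least 63.1-fold lower. Gpx3, Ccl24 and Siglec1 (sialoadhesin) also gave 0 UMIs in the members and were at least 14.2-fold, 13.7-fold and 9.20-fold lower. Ccl8 gave 1 and 1794 UMIs, with macrophages 486-fold higher (counting interval 87.0 to 19189), and Ccl12 gave 2 and 1058 (143-fold, 39.5 to 1184). C4b, a complement component, and Gpr65, a proton-sensing receptor, gave 2 and 1 UMIs in the members, with macrophages 107-fold (29.6 to 888) and 111-fold (19.8 to 4383) higher. Igf1, a growth factor, gave 1 UMI in the members and 312 in the macrophages. All 24 tested genes of the 30-gene macrophage list were lower in the dendritic cells, with a median log2 fold change of -2.82. They included Adgre1 (-3.48), which encodes F4/80, and C1qa (-3.53). The list includes genes that accompany Mrc1, Cd163 and Stab1, which the members were chosen to lack, and the 10 lowest genes share this limit. With the macrophages held to the members' limits, Apoe, Ccl12 and Gpr65 stayed lower (log2 fold changes -5.74, -6.62 and -6.08). The others of the 10, Cbr2, Ccl8, Gpx3, Ccl24, Siglec1, C4b and Igf1, had too few UMIs to be tested in that setting.

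Monocyte genes split. Of 10 tested 5 were higher, S100a4, Plac8 (log2 fold change 4.14), Fn1 (3.53), Ly6c2 (3.44) and Ccr2 (1.19), and 4 were lower, among them Cd14 (-3.42) and Fcgr1 (-2.38). Ly6c2, the surface marker of classical monocytes, varied widely among the libraries, at 609, 13.9, 625 and 132 CPM in the dendritic cells against 9.98 to 57.7 CPM in the macrophages, and DMSO replicate 2 fell among the macrophages. Ccr2 was even, at 536, 638, 591 and 651 CPM against 235 to 282 CPM, but with the macrophages held to the members' limits its log2 fold change was 0.26 (adjusted p = 0.391). Itgax had a log2 fold change of 1.00 in that setting, down from 2.00, and was not called (adjusted p = 0.0606).

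H2-Eb1, a class II beta chain that the definition did not use, stood at 12733, 12489, 10858 and 11622 CPM in the dendritic cells and at 8030, 10170, 10633 and 9260 CPM in the macrophages. The dendritic cell libraries lay above the macrophage libraries by a small margin, and the gene was not called (edgeR log2 fold change 0.27, SE 0.16, adjusted p = 0.225). Its estimate turned to -0.21 (adjusted p = 0.356) when the macrophages met the members' limits. H2-DMb2, a chain of the peptide exchanger H2-M, stood at 966, 638, 389 and 589 CPM against 7.98 to 44.9 CPM, and was higher by 4.27 on the log2 scale (SE 0.32, adjusted p = 3.4e-11). H2-Oa and H2-Ob, the chains of the H2-O molecule that restrains H2-M, were higher by 3.26 and 2.35, and Ciita, the class II transactivator, by 1.29. The other H2-M chains H2-DMa (log2 fold change 0.30) and H2-DMb1 (0.54) were not called. Ctss, Ctsl and Lgmn, lysosomal proteases that process antigen and invariant chain, were lower (log2 fold changes -2.19, -2.24 and -1.86). Of 12 tested class II genes 5 were higher and 3 lower.

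Promoters of H2-Eb1 and H2-Oa are shown because the former gene was not called between the cell groups and the latter was, while both carry the class II Y box (CTGATTGG, an inverted CCAAT box, in capitals). Both are 300-base windows from RefSeq on GRCm38.p6, read 5′ to 3′ on the plus strand. H2-Eb1 lies at chr17:34305617-34305916 with the box 62 bases before the gene start, and H2-Oa at chr17:34092129-34092428 with the box 46 bases before it.
H2-Eb1 promoter: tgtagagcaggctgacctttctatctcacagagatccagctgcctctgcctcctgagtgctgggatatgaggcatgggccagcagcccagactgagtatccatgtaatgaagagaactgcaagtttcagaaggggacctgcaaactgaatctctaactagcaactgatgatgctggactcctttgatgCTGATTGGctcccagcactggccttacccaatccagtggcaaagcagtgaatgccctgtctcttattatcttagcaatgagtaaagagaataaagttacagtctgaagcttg
H2-Oa promoter: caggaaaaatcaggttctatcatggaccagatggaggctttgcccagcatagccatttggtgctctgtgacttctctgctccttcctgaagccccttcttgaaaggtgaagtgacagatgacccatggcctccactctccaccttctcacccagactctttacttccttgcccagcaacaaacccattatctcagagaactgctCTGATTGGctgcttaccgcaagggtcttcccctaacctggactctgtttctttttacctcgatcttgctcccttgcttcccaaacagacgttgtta
The 8 letters, searched on both strands, occurred in 1346 of 32851 such promoters (4.10%), in a promoter of 1271 of 27025 genes (4.70%) and in those of 4 of the 15 class II list genes with a promoter in the table, H2-Aa, H2-Eb1, H2-Eb2 and H2-Oa. A match is a run of letters and was not tested as a binding site.

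Of 19 tested class I genes 0 were higher and 5 lower, among them B2m, the light chain (3077 ± 190 against 7006 ± 838 CPM, log2 fold change -1.24). Of 23 tested type I interferon response genes 1 was higher and 11 were lower, with a median of -0.98. Ifit3 and Bst2 (tetherin), both antiviral, had log2 fold changes of -3.13 and -2.14. Of 12 tested interferon gamma response genes 1 was higher and 5 were lower, led by Cxcl9 (-5.78), a chemokine at 0, 0, 0 and 20.8 CPM in the dendritic cells and at 96.1 to 389 CPM in the macrophages.

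Of 17 tested genes of LPS sensing and Toll-like receptor signalling 0 were higher and 7 were lower. Cd14 and Ly96, which hand LPS to its receptor, had log2 fold changes of -3.42 and -3.31, and Tlr4, the receptor, stood at 48.7, 55.5, 38.1 and 34.6 CPM against 182, 96.1, 112 and 97.8 CPM (log2 fold change -1.57, SE 0.29). Tlr4 did not overlap between the groups. Of 12 tested chemotactic receptors 1 was higher and 5 lower, among them the complement receptors C5ar1 (-5.48) and C3ar1 (-2.96). Tgfbr1 and Tgfbr2, the TGF-beta receptor chains, were lower (log2 fold changes -1.29 and -1.97). Of 10 tested costimulation and maturation genes 1 was higher and 3 were lower. Cd86, a costimulatory ligand, was lower (-2.17), and so was Cd83 (-1.10), whose groups overlapped and whose call was lost without inhibitors replicate 1 (-0.66, adjusted p = 0.0546). Cd40, Cd80, Xcr1 and Clec9a had too few UMIs to be tested.

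Of 21 tested cytokines and chemokines 2 were higher and 12 lower, and of 11 tested acute phase, metallothionein and iron genes 0 were higher and 7 lower, among them Slc11a1 (-3.81), a metal transporter of phagosomes, and Hmox1 (-2.38), which breaks down heme.

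Of 21 tested integrin and adhesion genes 5 were higher and 2 lower. Alcam, a ligand of CD6 on T-cells, was at 398, 416, 305 and 353 CPM against 16.0 to 26.5 CPM (log2 fold change 4.02, SE 0.25), and Emb (embigin) was higher by 3.17, while Itga6, a laminin receptor chain, was lower (-3.06). The integrins Itgam (0.54), Itgb2 (0.82) and Itgav (-0.69, adjusted p = 0.076) were not called. Of 8 tested cell cycle genes 4 were higher and 0 lower, with Mki67, the proliferation antigen, at 89.3, 41.6, 61.0 and 48.5 CPM against 7.98 to 19.9 CPM, which is higher by 1.95 on the log2 scale (SE 0.44, adjusted p = 0.0012). Mki67 UMIs came from 8 of the 188 members (4.26%) and 16 of the 575 macrophages (2.78%), or 4.73 and 1.16% after thinning. Top2a, another cell cycle gene, was detected in 3.19 and 2.78% of them, or 1.35 and 1.93% after thinning. Rrm1 and Mcm6, genes of DNA synthesis, each lost their call when a single library was left out. Of 43 tested oxidative phosphorylation genes 0 were called higher and 0 lower.

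**Figure D3:**
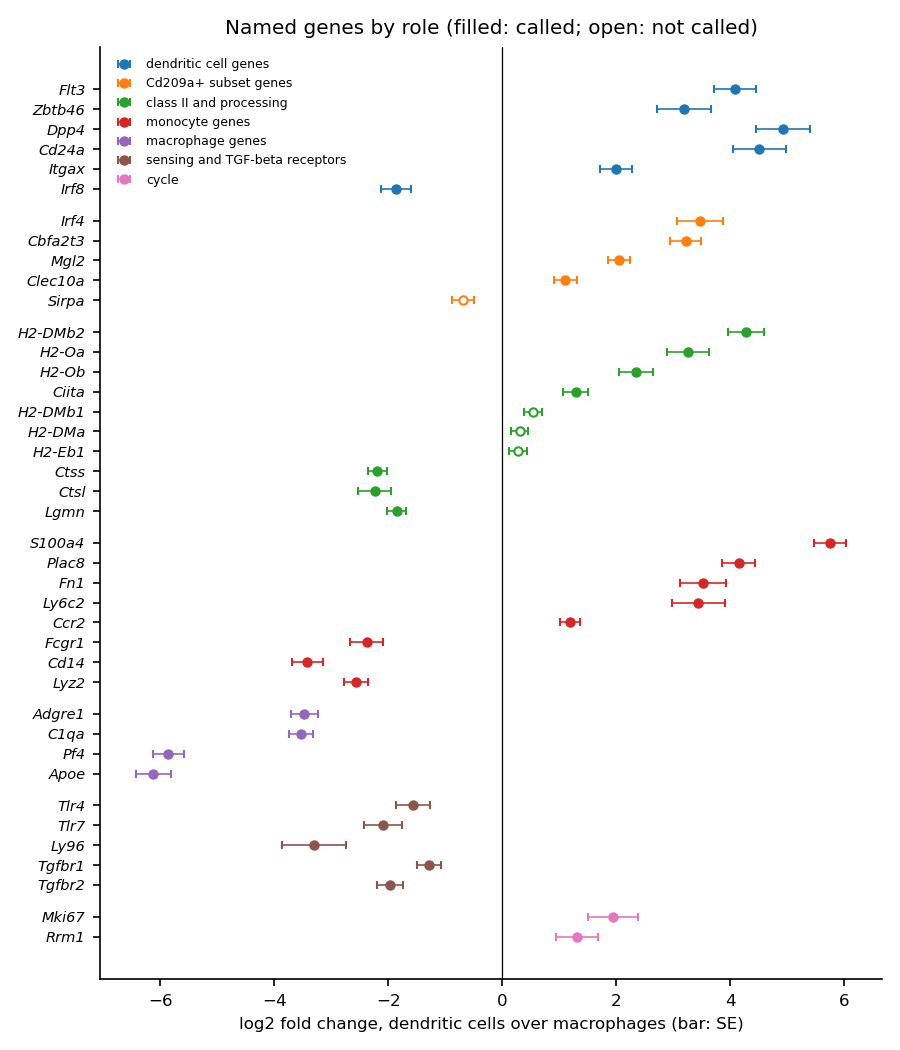
log2 fold change of dendritic cells over macrophages in the 4 saline libraries, grouped and coloured by the role of the gene, with bars for the standard error; filled points are called genes and open points are not. Flt3, Zbtb46 and Irf4 lie above 3, the class II chain H2-Eb1 lies at 0.27, and Apoe lies at -6.13.

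Neutrophil RNA varied among the libraries. S100a8, a calcium-binding protein of neutrophils, stood at 56.8, 194, 0 and 208 CPM in the dendritic cells against 3.21 to 49.7 CPM in the macrophages, and its call (log2 fold change 2.31) was lost without inhibitors replicate 2 (1.53, adjusted p = 0.0713). Without the same library the log2 fold change of S100a9 went from 1.43 to 0.30, and the third tested neutrophil gene, the cytokine receptor Csf3r, was lower (-1.29), a call lost without inhibitors replicate 1 (-0.61). The 10 neutrophil genes summed to 211, 361, 26.7 and 540 CPM in the members and to 760 to 3003 CPM in the free RNA, and their part in these calls was not tested.

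Immediate-early genes, which answer stimuli within minutes, were higher for 8 of 18 tested and lower for 0. Nr4a1, an orphan nuclear receptor of this kind, stood at 934, 735, 80.0 and 41.6 CPM in the dendritic cells and at 160, 76.2, 24.0 and 6.27 CPM in the macrophages (log2 fold change 2.56). Each dendritic cell library lay above the macrophages of the same mouse, but the DMSO libraries of both cell types lay above the inhibitor libraries. Klf4 and Egr1 were likewise higher (2.71 and 1.95).

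The members were not uniform in Mgl2. In saline libraries 102 members held an Mgl2 UMI and 86 held none. The former had more H2-Eb1 (15011 against 8126 CPM) and Itgax (223 against 111 CPM) and the latter more Flt3 (202 against 101 CPM) and Clec10a (611 against 357 CPM). These are pooled values of cells split by a gene of low count, given without a test.

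The third comparison asked what the inhibitors changed in the saline members, with 2 libraries against 2 (edgeR quasi-likelihood test, 2239 genes, the same call rule). With DMSO 28 genes (1.25% of those tested) were higher and 0 (0%) were lower, although 265 genes lay below 0.05 before adjustment, and 26 higher and 2 lower genes were called by DESeq2. With the labelled batch as a block 12 genes were higher and 0 lower, and without DMSO replicate 2 there were 80 higher and 67 lower, so the absence of lower genes did not hold in every setting. Zfp36, an RNA-binding protein that destabilises cytokine mRNA, stood at 4409 and 2914 CPM with DMSO and at 396 and 409 CPM with inhibitors (log2 fold change 3.19, SE 0.28, adjusted p = 0.000503). Fos, an AP-1 subunit, stood at 2501 and 1929 against 145 and 312 CPM, and Egr1, an early growth response factor, at 4182 and 1762 against 210 and 235 CPM. The 2 DMSO libraries lay above both inhibitor libraries for each of them.

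Of 17 tested immediate-early genes 13 were higher, 9 of them also with the batch as a block. Nr4a1, Dusp1, Ier2, Jun, Junb, Jund and Fosb were higher by 3.69, 3.89, 2.86, 2.66, 2.53, 2.27 and 4.63 on the log2 scale, and of these Junb and Fosb were not called with the block (adjusted p = 0.0545 and 0.0576). Of 8 tested NF-kappaB subunit and feedback genes 5 were higher (3 with the block), among them Nfkbia (2.57), the inhibitor that NF-kappaB induces. Of 9 tested cytokines 4 were higher (2 with the block, Il1b and Ccl4), with Il1b at 422 and 555 against 57.2 and 48.5 CPM (log2 fold change 3.15) and Tnf at 244 and 208 against 34.3 and 62.3 CPM (2.30). The Tnf call was lost with the block (log2 fold change 2.31, edgeR adjusted p = 0.173), without DMSO replicate 1 (2.11) and without inhibitors replicate 1 (1.77). Ccl4, an inflammatory chemokine, gave 72 and 3 UMIs (ratio 50.0, counting interval 16.4 to 248). Cd83, a maturation marker, was higher by 2.71, a call lost with the block (2.68, edgeR adjusted p = 0.17) and without DMSO replicate 1 (1.91). Saa3, an acute phase protein, gave 19 and 1 UMIs (ratio 39.6, 6.29 to 1645), with a log2 fold change of 4.92. Its call was lost with the block (log2 fold change 4.92) and without inhibitors replicate 1 (6.47) or inhibitors replicate 2 (4.39).

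Hemoglobin RNA moved with DMSO as well. Hba-a2 gave 26 UMIs with DMSO and 0 with inhibitors (at least 18.1-fold), and Hba-a1 gave 34 and 1 (ratio 70.8, 11.9 to 2880). The 5 erythrocyte genes summed to 463 and 666 CPM in the DMSO members and to 3.81 and 34.6 CPM in the inhibitor members, beside 4774 and 10333 against 540 and 1206 CPM in the free RNA of the same libraries. None of the 3 tested erythrocyte genes was called with the batch as a block (adjusted p = 0.0612 to 0.111). Their sums were lower with inhibitors both in the members and in the free RNA, and the part of free RNA in these calls was not tested. None of the 9 tested core dendritic cell genes or the 14 tested genes of the Irf4-dependent list was called. Flt3 stood at -0.03 (SE 0.50), Mgl2 at 0.07 (SE 0.30) and H2-Eb1 at 0.16 (SE 0.21) on the log2 scale. All 11 tested class II genes were uncalled. Of the core genes 4 had positive and 5 negative estimates. Cd24a averaged 251 CPM with DMSO and 77.4 CPM with inhibitors (edgeR adjusted p = 0.0811), and Irf4 averaged 173 and 82.8 CPM (adjusted p = 0.337). On simulated counts this comparison recovered only 23% of genes changed by 1 on the log2 scale. An uncalled gene may thus still have changed. Clec10a stood at 317 and 208 CPM with DMSO and at 617 and 513 CPM with inhibitors (log2 fold change -1.08, adjusted p = 0.177).

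**Figure D4:**
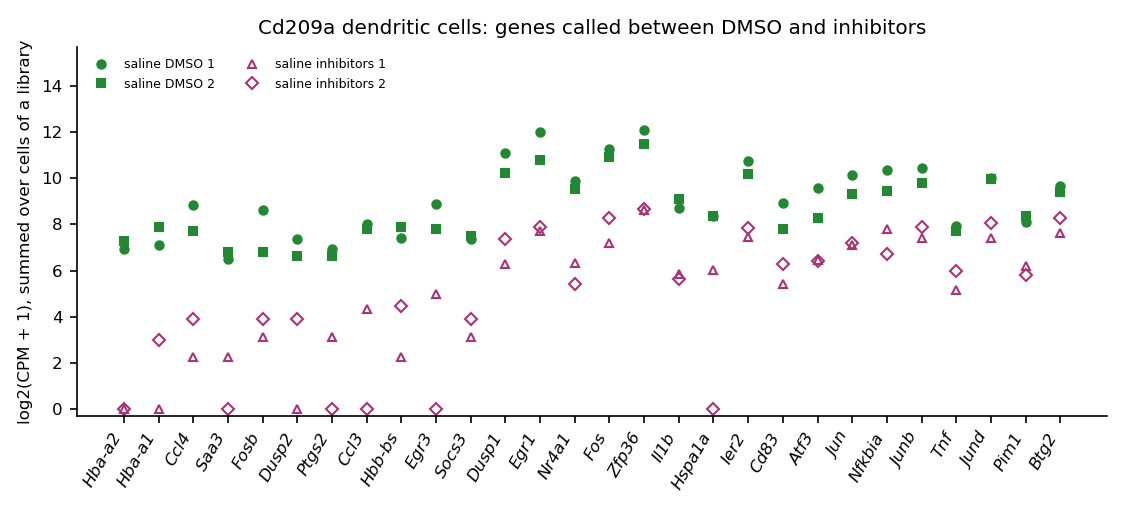
CPM on the log2(CPM + 1) scale of the 28 genes called between DMSO and inhibitors in the saline dendritic cells, with a point for each of the 4 saline libraries. Filled green points (DMSO) lie above open purple points (inhibitors) for every gene, for example 4409 and 2914 against 396 and 409 CPM for Zfp36.

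The fourth comparison followed dendritic cell genes into LPS brains where the members themselves could not be followed, in all class II positive cells with at least 20 class II UMIs, 0 UMIs of Cd79a and Cd3e and at most 1 UMI of Mrc1, Cd163 and Stab1. There were 235, 227, 296 and 358 of these with saline and 355, 206, 266 and 310 with LPS (DMSO 1, DMSO 2, inhibitors 1, inhibitors 2), that is 1.69 to 2.44% and 1.71 to 2.08% of cells. The members were 44, 33, 56 and 55 of the saline cells and 0, 0, 0 and 1 of the LPS cells. The cells that make up this set may differ between the treatments, so levels and cell composition cannot be told apart. Their median depth was 2291, 2219, 3050 and 2173 UMIs with saline and 3807, 4283, 3231 and 4219 UMIs with LPS. The fixed class II minimum could thus admit cells with a smaller fraction of class II RNA with LPS. With adjusted p under 0.05 as the only limit, edgeR called 2181 of 9051 genes higher with LPS (24.1%) and 2257 lower (24.9%), so that a call here is common.

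Mgl2 stood at 245, 261, 266 and 204 CPM with saline and at 4.33, 5.94, 8.99 and 1.14 CPM with LPS in these cells (log2 fold change -5.45, SE 0.29, adjusted p = 2.7e-09). With the members left out its log2 fold change was -4.80. Flt3 stood at 79.9, 77.5, 111 and 64.2 CPM against 16.8, 11.9, 8.09 and 4.58 CPM (-2.75, and -2.55 without members), and Zbtb46, Itgax and Irf4 had log2 fold changes of -3.25, -2.67 and -3.30 (-2.83, -2.53 and -2.64 without members). That of Clec10a was -3.66, or -2.16 without members. No LPS library reached a saline library for any of these 6 genes. The share of all genes that did the same is not given here. The differences were also called with the members left out. The cells that stayed still included the 43 saline cells with exactly 1 UMI of Cd209a that met the other limits. These had 1111 CPM of Mgl2 and 157 CPM of Flt3, against 741 and 162 CPM in members with 3 or more UMIs. Their part in the differences was not tested. Of 18 tested core dendritic cell genes 14 were lower and 2 higher, and of 18 tested genes of the Irf4-dependent list 12 were lower and 3 higher. Markers of other cells were lower in the same comparison too, with 11 of 14 tested for microglia, 8 of 9 for plasmacytoid dendritic cells, 5 of 8 for B-cells and 5 of 8 for endothelial cells. Of 24 tested macrophage genes 5 were higher and 9 lower (median -0.26), and of 13 tested monocyte genes 3 were higher and 5 lower (median -0.47). Cd14, Fcgr1 and C1qa were among those that rose (log2 fold changes 2.17, 1.26 and 0.90).

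Other dendritic cell genes in the same cells gave both directions. Xcr1 and Clec9a, markers of the cross-presenting branch, fell to 0 to 0.572 and 0 to 3.25 CPM with LPS from 18.9 to 31.9 and 24.2 to 44.2 CPM with saline. H2-Eb1 stood at 8018 to 10047 CPM with saline and at 974 to 1304 CPM with LPS (log2 fold change -2.67), and Ciita fell alike (-2.84). Ccr2 had a log2 fold change of -3.86 with and without the members. Ccl17 and Ccl22, chemokines of mature dendritic cells, were higher (2.49 and 1.72), with 180 to 784 against 55.5 to 261 CPM of Ccl17, so that its groups overlapped. Of the 15 genes furthest above the macrophages, 13 were lower with LPS, 1 (Mcemp1) was higher and 1 (Cd244a) was not called. Without the members 13 of the 15 passed the filter and 6 were lower, 1 higher and 6 not called. Of the 321 genes called higher than in the macrophages in every library 226 were lower and 15 higher with LPS, and 191 and 24 of 314 without the members. Of the 15, Kcne3 and Cd209c were those that no longer passed the filter once the members were left out, and both are among the 13. All these genes were picked as high in the saline members, which were nearly absent with LPS. The counts that include the members thus follow largely from that choice.

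**Figure D5:**
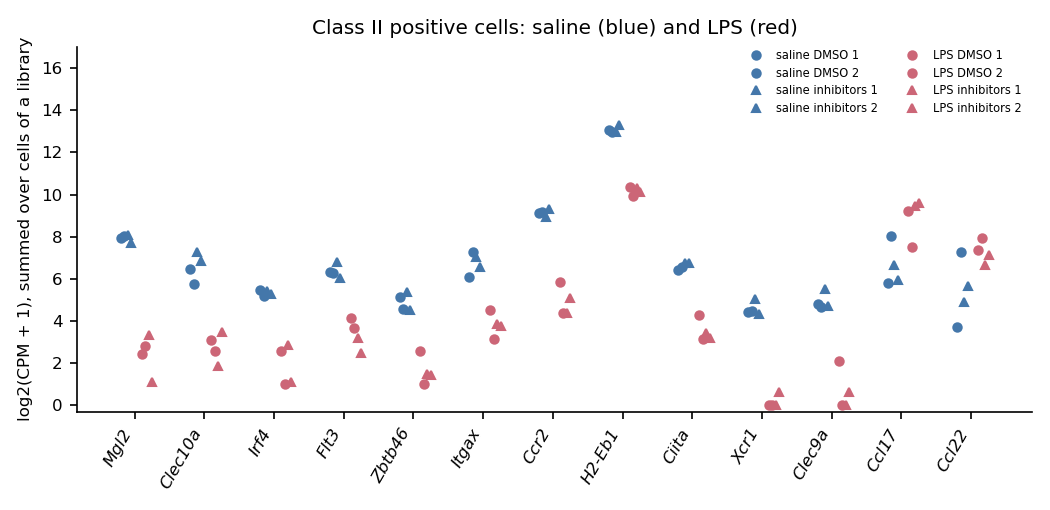
CPM on the log2(CPM + 1) scale of 13 dendritic cell genes in class II positive cells, with a point for each of 4 saline (blue) and 4 LPS (red) libraries; circles are DMSO and triangles inhibitor libraries. The LPS points lie below all saline points for Mgl2 to Clec9a, and those of Ccl17 and Ccl22 reach higher, with some overlap.

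Over all cells in the limits, whatever their type, edgeR called 6167 of 21758 genes higher (28.3%) and 6304 lower (29%) with LPS, and the median gene shifted by -0.14 on the log2 scale (-0.09 under another scaling), against which the following values are to be read. Mgl2 stood at 26.3, 20.8, 25.6 and 28.6 CPM with saline and at 0.410, 0.498, 0.397 and 0.277 CPM with LPS (log2 fold change -5.29, SE 0.19). Irf4, which other leukocytes also use, had a log2 fold change of -2.39, Clec10a of -1.61, Flt3 of -1.15 and Zbtb46 of -0.95. Mgl2 was thus the furthest below the median shift of these 5 genes. No LPS library reached a saline library for any of the 5, but the share of all genes that did the same is not given here. Of the lists of other cell types, 13 of 14 tested microglial genes, 9 of 10 B-cell genes, 10 of 10 T-cell genes and 19 of 29 macrophage genes were lower as well, with medians of -2.50, -3.92, -2.30 and -0.83, while 8 of 14 monocyte genes were higher and 2 lower (median 1.13) and 2 of 10 neutrophil genes were higher and 2 lower (median 0.50), beside 11 of 19 core dendritic cell genes with a median of -0.87. Over all cells the other genes that stood high in the dendritic cells went both ways. Of the 15 genes furthest above the macrophages 5 were lower and 7 higher with LPS, and of the 321 called in every library 97 were lower and 137 higher, with a median log2 fold change of 0.26.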

How the data were processed

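CD45+ cells of 8 mouse brains, 1 library per mouse, were captured by PIPseq. The authors aligned reads and counted UMIs with PIPseeker, which uses STAR, against GRCm39 and analysed the cells in Seurat, and deposited raw UMI counts per gene and barcode, the only unit used here. Droplet capture keeps free RNA in the counts, which was not removed. The members and the gene lists were chosen with earlier results of these data known. Cells in the limits were taken from the deposited counts, UMIs were summed per library and cell group, and genes were tested with edgeR 4.0.16 (quasi-likelihood, TMM, filterByExpr, R 4.3.3) in libraries with at least 10 cells of a group, and p-values were adjusted over all tested genes by Benjamini-Hochberg. The 12 genes of the cell definitions were not tested between cell groups. Shares were set against each other in two-sided exact permutation tests over libraries (scipy 1.17.1). Libraries held 90352359 to 141182123 UMIs. Intervals for shares are exact binomial and cover counting error only.

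Groups came from the labels, with 2 libraries per combination and 1 mouse each. The replicate number is the batch in the labels and so pairs samples, while the study's methods mention staggered capture days. Deviations of same-numbered libraries correlated at 0.0494 in the members and at 0.135 or more over all cells. The LPS comparisons were also run with the batch as a block. Alternatives were DESeq2 1.42.0, another scaling (RLE), a lower filter, blocks, thinning, other limits, free-RNA subtraction and leaving out each library. Scrublet marked 0.00746 to 0.443% of cells at its automatic threshold, too few to have worked, and removing its highest 8% was an alternative. On simulated counts the comparison of dendritic cells and macrophages recovered 100% of genes changed by 3 and 55% of those changed by 1 on the log2 scale over 3930 genes, and the comparison of DMSO and inhibitors recovered 99% and 23% over 1999 genes. The planned test of LPS within the members and its difference from macrophages could not be made, since LPS libraries held 1 member. The class II positive and all-cell comparisons, the Flt3 and Mgl2 definitions, the free-RNA subtraction and the macrophages low in microglial RNA were added after seeing the data. A rule set which genes to name, namely the 15 highest and 10 lowest, the 5 largest for DMSO, up to 4 called per list, and set markers. It was not followed fully for DMSO. Fos, Ier2, Jun, Junb, Jund and Nfkbia were named there beyond the rule. Egr3, Dusp2, Socs3, Ccl3, Hbb-bs and Hspa1a fell under it and were not described. Of these only Egr3 was called with the batch as a block. Detection of Klrd1 and Mki67 was added after their values were seen.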

Additional observations from a re-analysis of the deposited data

Results flagged for a closer look

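In 99 groups of 4 libraries, 7 had a library far from the other 3 by Dixon's test, where chance gives about 1 in 20. The share of Cd209a dendritic cells in LPS inhibitors replicate 2 was 0.00576%, from its 1 member, while the other LPS libraries were at 0. The same library stood at 4.17 members per 100 macrophages, with the others at 0. Both flags come from the same cell, and with the others at 0 any count would be flagged, so the rate by chance does not apply to them. The macrophage share of saline inhibitors replicate 2 was 1.65%, with the other saline libraries at 0.686 to 0.851%. Kcne3 stood at 180 CPM in the dendritic cells of saline DMSO replicate 2 and at 90.0 to 103 CPM in those of the other saline libraries. In the macrophages, Clec10a stood at 136 CPM in saline DMSO replicate 2 against 196 to 205 CPM, Ccl12 at 659 CPM in saline DMSO replicate 1 against 407 to 438 CPM, and Tgfbr2 at 525 CPM in saline DMSO replicate 1 against 366 to 391 CPM.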

How the results depend on the processing

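The share of Cd209a dendritic cells was lower with LPS under all definitions tried (-0.396 percentage points with 1 UMI of Cd209a to -0.119 with Flt3 and Zbtb46 in its place, exact permutation p = 0.0286 each), and without each library (-0.350 to -0.307). Permuting within the labelled batch as a block left the difference at -0.324 and raised the exact p to 0.0556. Counts of genes higher and lower in dendritic cells than in macrophages were 147 and 179 with macrophages held to the members' limits, 163 and 224 after thinning, 203 and 261 with macrophages low in microglial RNA, and 797 lower with a filter at a total of 10 UMIs. Fewer genes passed the filter in the first 3 of these settings. Without each library the counts were 333 to 414 and 419 to 519. H2-Eb1 turned to -0.21 and P2ry12 to 0.0620 with macrophages held to the members' limits, and P2ry12 turned to 1.50 and Tmem119 to 0.94 with macrophages low in microglial RNA, which are chosen on these 2 genes. Genes higher with DMSO numbered 50 with the lower filter, 12 with the replicate block and 43 after the Scrublet removal, and genes lower with DMSO 2 under DESeq2, 2 under RLE scaling, 19 with the lower filter and 13 after the Scrublet removal; the cause was not tested. Without each library they were 26 to 80 and 2 to 67, with 80 and 67 without DMSO replicate 2 and 44 and 24 without inhibitors replicate 2. Such fits leave 1 library in an arm, assumed to vary like the others. Without each library the class II positive cells gave 1900 to 2125 genes higher and 1997 to 2281 lower with LPS, and all cells 5698 to 6196 and 5577 to 6156. The replicate block changed no other call beyond 1.5 times. Values were tallied over the alternatives for the genes that the naming rule gave, whether or not described above. For the macrophage comparison 1336 kept direction and call, 53 lost it, 4 gained it and 4 reversed, and for DMSO 125 kept it and 23 lost it. The alternatives for the LPS test within members and of its difference from macrophages were not run, because LPS libraries held 1 member, and the macrophage comparison in LPS libraries alone was not possible for the same reason. Restricting it to saline libraries, or leaving out the in vivo term for DMSO, gives the values already reported. Depth limits genes of few UMIs, since 188 cells held all saline member RNA.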
